A study of Mus musculus with 72 samples.

Results

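The IL-6 family receptors and the STAT3 axis were followed through the muscle and 4 other tissues of mice that lack the clock gene *Bmal1*. The set holds 8 of the 55401 genes in the deposited tables, matched by symbol to their Ensembl identifiers: the receptor genes *Il31ra*, *Osmr*, *Il6ra*, *Il6st* and *Lifr*, and *Stat3*, *Socs3* and *Arid5a* downstream of them or acting on the same mRNAs. The genes were selected on earlier results of these libraries, and the rule singles out 1 of them, the 40-week gastrocnemius library labelled KO replicate 2. Every contrast that uses the 40-week KO gastrocnemius libraries is therefore given as a description, with and without that library and with no test. Which other values were in view is not recorded, so the P values of all remaining contrasts accompany a description and are not independent evidence.

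All mice were male and were sampled at ZT1, 1 hour after lights on. WT littermates, *Bmal1*-KO mice (the deletion was in the whole body) and KO+AAV mice were compared. KO+AAV mice were *Bmal1*-KO mice given AAV9 carrying HA-tagged *Bmal1* under the muscle promoter CK6 on postnatal day 5. This promoter is active in fibers of some muscles, gastrocnemius among them, and left BMAL1 below its WT level. Gastrocnemius was taken at 10 weeks (6 WT, 6 KO and 7 KO+AAV libraries, sequenced at 2 sites, ICBR and Novogene) and at 40 weeks (5 of each, all Novogene). Lung, liver, heart and white fat came from 40-week mice (4 KO and 4 KO+AAV libraries each, ICBR). A separate 10-week experiment compared gastrocnemius of KO mice given a GFP virus with control KO mice (3 libraries each, Novogene). No group given the GFP virus was sequenced from the other tissues or from 40-week muscle. The labels name no virus for the WT and KO groups. The labels number the libraries as replicates without naming the animals, so P values measure the spread between libraries. Reads assigned to genes ranged from 9325122 to 41733282 in gastrocnemius (median 11796140), from 6754312 to 8515400 in the GFP experiment and from 36903079 to 50755829 in the other tissues.

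Cytokines of the IL-6 family bind a ligand-specific receptor chain that pairs with a shared signaling chain. *Il6ra* encodes the chain that binds IL-6, *Il6st* the shared chain gp130, *Lifr* the receptor of leukemia inhibitory factor, *Osmr* the oncostatin M receptor, and *Il31ra* the chain that pairs with OSMR to bind IL-31. The paired chains activate JAK kinases, which phosphorylate STAT3, a transcription factor that enters the nucleus as a dimer. *Socs3* is a STAT3 target whose product binds gp130 and JAKs and shuts the signal off. *Arid5a* encodes an RNA-binding protein that stabilizes *Il6* and *Stat3* mRNA. In muscle the pathway is known from regeneration, from exercise, when fibers release IL-6, and from wasting.

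The promoters are shown first because BMAL1 with CLOCK binds the E-box CACGTG and STAT dimers bind TTCNNNGAA, so their letters are the part of these genes on which both axes could be read. RefSeq windows (GRCm38.p6, 250 bases before to 50 bases after each start) were matched for all 8 genes, 9 windows in all since *Lifr* has a pair. Each motif reads the same on both strands, and TTCCNGGAA is a form of TTCNNNGAA. TTCNNNGAA was present in the windows of 2 members and in 8.30% of all 32851 windows, TTCCNGGAA in 1 member and 1.15% of windows, and CACGTG in 1 member and 7.15% of windows. The 3 windows with a match follow, 5′ to 3′, with the match in capitals.

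*Il31ra*, chr13:112580613-112580912, minus strand: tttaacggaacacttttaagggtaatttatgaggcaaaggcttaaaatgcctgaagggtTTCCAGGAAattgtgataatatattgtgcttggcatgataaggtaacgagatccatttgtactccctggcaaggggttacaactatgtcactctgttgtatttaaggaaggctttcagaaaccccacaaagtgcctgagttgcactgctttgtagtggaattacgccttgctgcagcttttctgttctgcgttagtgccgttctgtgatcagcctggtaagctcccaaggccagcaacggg
*Socs3*, chr11:117969317-117969616, minus strand: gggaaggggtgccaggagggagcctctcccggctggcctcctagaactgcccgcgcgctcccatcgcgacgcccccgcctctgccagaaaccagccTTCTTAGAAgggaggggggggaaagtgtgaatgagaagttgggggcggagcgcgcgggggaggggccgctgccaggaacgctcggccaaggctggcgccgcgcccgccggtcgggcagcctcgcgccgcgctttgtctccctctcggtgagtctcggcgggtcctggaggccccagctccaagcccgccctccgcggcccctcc
*Il6ra*, chr3:89913147-89913446, minus strand: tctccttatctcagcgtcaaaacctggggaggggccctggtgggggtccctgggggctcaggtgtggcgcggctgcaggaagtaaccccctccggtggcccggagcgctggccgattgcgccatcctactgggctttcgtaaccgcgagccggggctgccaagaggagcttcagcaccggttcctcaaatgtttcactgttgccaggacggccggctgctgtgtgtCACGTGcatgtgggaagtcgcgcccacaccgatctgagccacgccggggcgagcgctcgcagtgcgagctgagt

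The first base of the match lay at position -191 from the start in *Il31ra*, -154 in *Socs3* and -24 in *Il6ra*. The windows of *Osmr*, *Il6st*, *Lifr*, *Stat3* and *Arid5a* held none of the 3 motifs, which says only that these letters are not in these windows. The RefSeq starts used for *Il31ra*, *Osmr* and *Socs3* and both of *Lifr* lie inside the genes as the GENCODE annotation of GRCm38 draws them. The *Lifr* windows are chr15:7129322-7129621 and chr15:7140292-7140591, and that of *Osmr* is chr15:6874264-6874563. *Il31ra* spans chr13:112519898-112594360 on the minus strand. *Il31ra* and *Il6st* (chr13:112464070-112510086, plus strand) are neighbours on chromosome 13, as are *Osmr* (chr15:6813577-6874969, minus strand) and *Lifr* (chr15:7090614-7197489, plus strand) on chromosome 15. *Stat3* (chr11:100885098-100939540) and *Socs3* (chr11:117966079-117970047) lie on the minus strand of chromosome 11, *Il6ra* on that of chromosome 3 (chr3:89864059-89913196) and *Arid5a* on the plus strand of chromosome 1 (chr1:36307733-36324029). Of the exon bases of *Il6ra*, 2.80% overlap the antisense gene *Gm42809*, and 0.756% of those of *Stat3* overlap *Stat5a* on the other strand. Whether counting used strand is not given in the sources used here.

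Per exon length, the shared chain *Il6st* was the highest member in gastrocnemius, with a median RPKM (reads per kilobase of exon, scaled to the reads on genes of the library) of 18.6 over the 34 libraries (range 14.7 to 24.9). *Stat3* (median 5.96, range 4.10 to 12.03) and *Lifr* (4.86, 2.28 to 7.42) came next on this scale, with ranges that overlapped each other and lay below the lowest *Il6st* library. *Socs3* (median 0.969), *Osmr* (0.749), *Arid5a* (0.468) and *Il6ra* (0.426) followed, each overlapping its neighbours in the order, and *Il31ra* was last at 0.0150. *Il6ra*, *Osmr* and *Il31ra* were in every library below the shared chain.

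The order differed by tissue on the same RPKM scale. In lung, *Il6st* (median 43.1), *Stat3* (21.2), *Lifr* (14.2), *Socs3* (12.6), *Il6ra* (9.48), *Osmr* (5.76) and *Arid5a* (2.18) all exceeded their gastrocnemius medians, and *Lifr*, *Socs3* and *Il6ra* overlapped their neighbours in the order while the others did not. In liver, *Lifr* was first (19.8), ahead of *Stat3* (13.0) and *Il6st* (11.1), whose ranges overlapped it, and *Il6ra* followed them at 6.21. In heart, *Il6st* (16.2) and *Stat3* (15.8) overlapped, and *Lifr* (3.18), *Osmr* (1.61) and *Il6ra* (0.639) had medians well under them. In white fat, *Il6st* (29.6), *Stat3* (14.6) and *Lifr* (6.80) were in the muscle order, *Il6st* overlapping *Stat3*, while *Osmr* was at 4.55, *Il6ra* at 4.35 and *Il31ra* had its highest median of the tissues, 0.163. These levels are a description: each tissue was a set of libraries of its own, the deposited values were scaled within a tissue, and age and site differ between muscle and the rest.

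**Figure D1:**
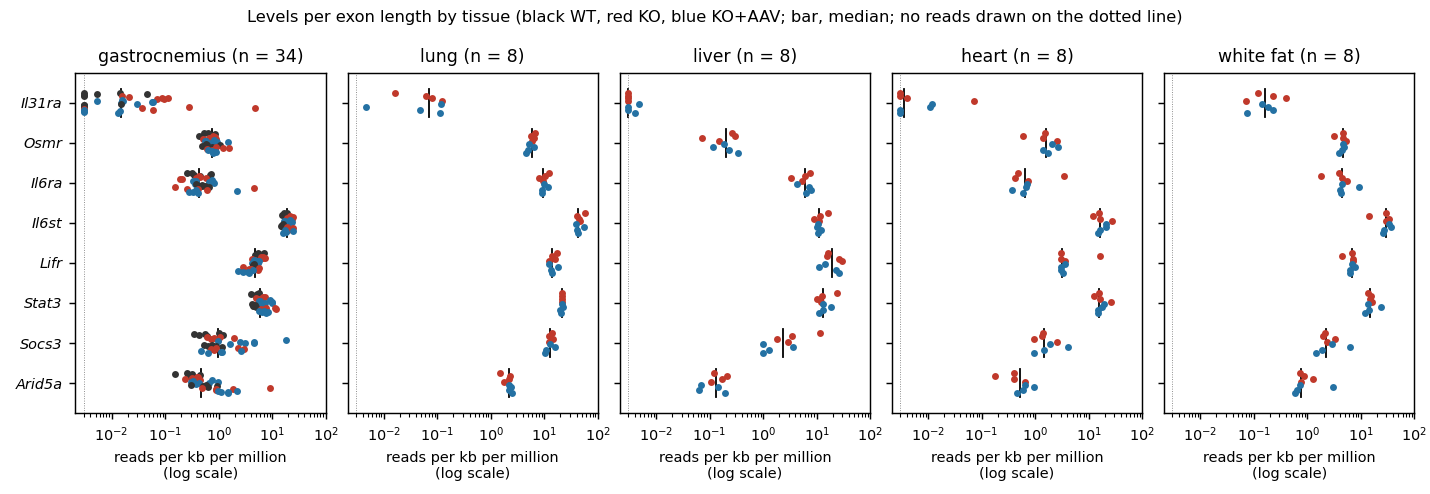
Level of each member per exon length (x axis, RPKM, log scale) in every library of 5 tissues, with WT in black, KO in red, KO+AAV in blue, a bar at the median and libraries without reads drawn on the dotted line. *Il6st* leads in gastrocnemius (18.6), lung (43.1), heart (16.2) and white fat (29.6), while *Lifr* leads in liver (19.8).

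Several libraries stood apart from their groups. In the library labelled KO replicate 2 of the 40-week gastrocnemius, 23.6% of genes were more than 2-fold from the median of the rest of the group, against 8.79% to 11.2% in the other 4 KO libraries, and KO+AAV replicate 2 of the same age had 15.6% (others 5.59% to 7.33%). *Arntl*, the symbol of *Bmal1* in the deposited data, was at 1039 normalized counts in that KO library. This was above the other KO libraries (308 to 395) and above all 5 WT libraries (480 to 608), so the *Arntl* value goes against its label. The clock output genes *Dbp* and *Per3* go with the KO label. *Dbp* (32.2 normalized counts) and *Per3* (3.58) were lower there than in the other KO libraries (73.1 to 92.8 and 9.63 to 30.3) and far below WT (560 to 877 and 268 to 433). In heart, KO replicate 2 was 37.5% of genes away, and hepatocyte markers took 3.03% of its reads, against 0.000690% to 0.00149% in the other 7 heart libraries. In white fat, KO replicate 2 (44.1%) and KO+AAV replicate 2 (23.4%) were the libraries farthest from their groups, and adipocyte markers took 0.586% of reads in the former and 2.59% to 3.36% in the other 7. The labels do not say whether libraries with the same number came from the same mouse. At 10 weeks *Arntl* was 526 normalized counts in WT and 238 in KO on average, a log2 difference of 1.14 ± 0.19 (SE; adjusted P = 6.59e-05). In the KO+AAV libraries of that age it averaged 232, no higher than in KO (KO+AAV minus KO -0.06 ± 0.18, adjusted P = 0.962), so the tables do not show the viral *Bmal1* as a gain in *Arntl* and this gene does not check the KO+AAV label. All 6 muscle fiber markers were present in every gastrocnemius library.

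**Figure D2:**
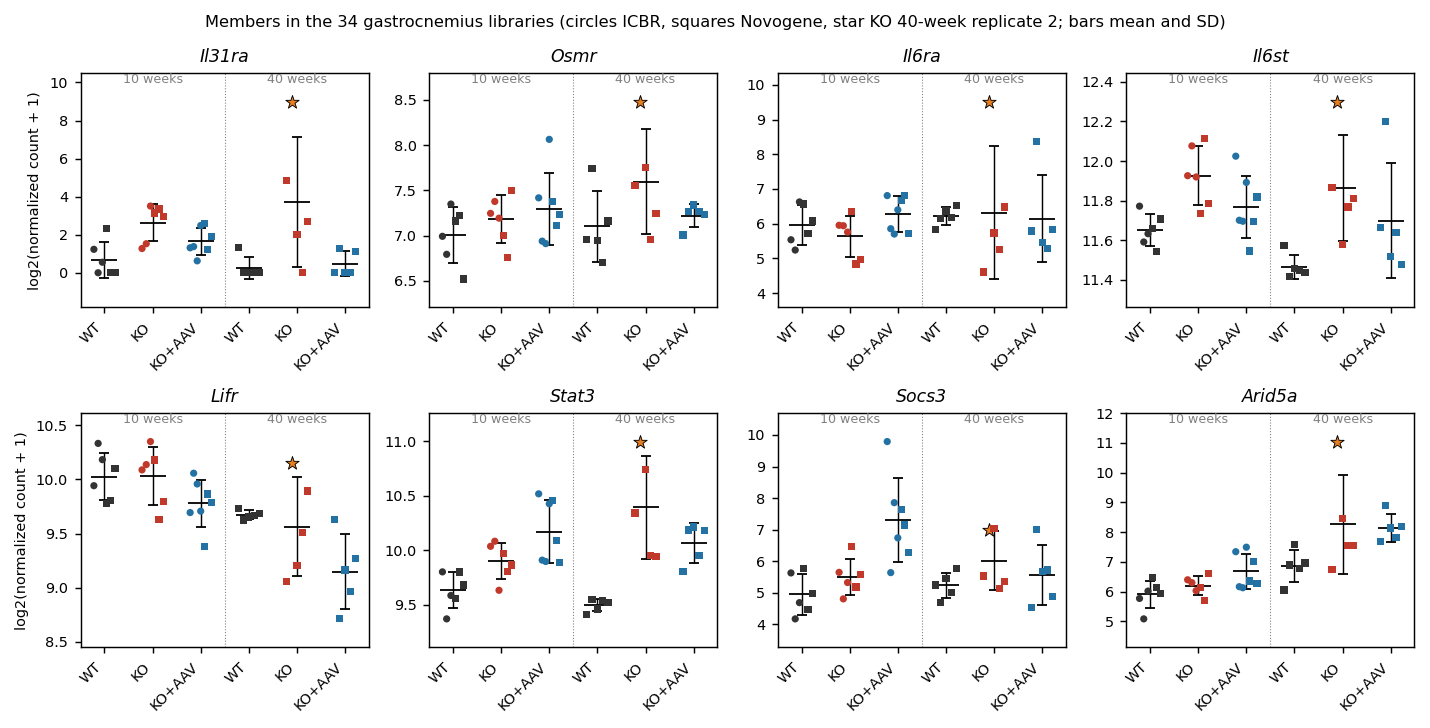
Members in the 34 gastrocnemius libraries as log2(normalized count + 1) (y axis), by group and age, with circles for ICBR, squares for Novogene, a star for the library labelled KO replicate 2 at 40 weeks, and bars at the mean and SD. The star is the highest of all libraries for *Il31ra*, *Osmr*, *Il6ra*, *Il6st*, *Stat3* and *Arid5a*.

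*Il31ra* passed the filter on low values (a mean normalized count above 5) in gastrocnemius only through KO replicate 2 at 40 weeks. That library held 509 normalized counts (284 reads), while KO replicates 1, 3, 4 and 5 held 27.5, 3.07, 0 and 5.52 (20, 2, 0 and 4 reads). WT libraries of that age had 1.48, 0, 0, 0 and 0, and KO+AAV libraries 0, 1.40, 0, 0 and 1.20, no library above 1 read. KO replicate 1 was thus the only other 40-week library clearly above the floor of 3 reads, and no fold change is given because WT and KO+AAV were under that floor. In bulk muscle, fewer cells of a type and less RNA per cell cannot be told apart, here and below. At 10 weeks *Il31ra* ranged from 1.42 to 10.3 normalized counts in KO (median 7.29), from 0 to 4.02 in WT and from 0.543 to 5.06 in KO+AAV. KO had the highest libraries, but the groups overlapped, and no test of *Il31ra* in gastrocnemius is given since it was admitted only through KO replicate 2.

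*Osmr*, the chain with which IL31RA pairs, was at 187, 356, 215, 123 and 150 normalized counts in the 40-week KO libraries. WT libraries had 123, 213, 122, 103 and 142, and KO+AAV libraries 128, 153, 161, 153 and 150. Apart from KO replicate 2 all 3 groups overlapped, and the WT minus KO difference moved from -0.50 to -0.27 (log2) without it. At 10 weeks *Osmr* differed by -0.17 ± 0.21 between WT and KO (adjusted P = 0.738), and KO+AAV replicate 4, at 267, was the single high library.

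*Il6ra*, the IL-6 binding chain, changed sign with KO replicate 2. The 40-week KO libraries had 23.4, 732, 52.1, 37.5 and 88.3 normalized counts, the WT libraries 56.3, 70.2, 81.4, 71.9 and 90.7, and the KO+AAV libraries 54.2, 327, 43.3, 38.1 and 56.3. KO and KO+AAV replicate 2 were the highest libraries, and 3 of the other 4 KO libraries were under every WT library. The sign of the difference accordingly turned: WT minus KO was -0.11 (log2) with all libraries and 0.69 without KO replicate 2, and KO+AAV minus KO was -0.17 and 0.63. Without both replicate 2 libraries KO+AAV minus KO was 0.08. The antisense gene *Gm42809* was also highest of its group in these libraries, at 75.2 and 12.6 normalized counts, against 0 to 1.53 in the other KO, 0 to 4.58 in the other KO+AAV and 1.77 to 12.5 in the WT libraries. Its part in the *Il6ra* values was not tested. WT minus KO+AAV for *Il6ra* at 40 weeks was 0.06 ± 0.58 (log2, adjusted P = 0.963). It ran from -0.49 to 0.62 over the alternatives, none of them called.

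*Il6st*, the shared chain, was the steadiest receptor. WT libraries at 40 weeks lay at 3047, 2736, 2807, 2791 and 2770 normalized counts, KO libraries at 3738, 5043, 3055, 3487 and 3592, and KO+AAV libraries at 3244, 4707, 2931, 3185 and 2848. Every KO library was above every WT library, with KO replicate 3 and WT replicate 1 almost level, whereas KO+AAV overlapped both. WT minus KO was -0.40 (log2), and -0.29 without KO replicate 2, still without overlap. At 10 weeks the lowest, median and highest values were 2981, 3205 and 3496 in WT and 3408, 3882 and 4438 in KO. The WT and KO ranges met between 3408 and 3496, and WT minus KO was -0.28 ± 0.10 (adjusted P = 0.110). This difference passed the threshold with the WT and KO groups fitted alone (adjusted P = 0.0215), with library quality weights (0.00274) and without both 40-week replicate 2 libraries (0.00954). At the other settings the adjusted P ran from 0.0535 to 0.414.

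Among the members, *Lifr* was the only receptor called lower in KO+AAV than in WT muscle at 40 weeks. WT libraries had 851, 788, 804, 813 and 824 normalized counts, KO libraries 532, 1135, 590, 726 and 950, and KO+AAV libraries 792, 418, 572, 499 and 615. Of the KO+AAV libraries 4 were under every WT library and replicate 1 reached into the WT range, while KO spanned both groups. WT minus KO+AAV was 0.53 ± 0.16 (log2, adjusted P = 0.0276). The call was lost without KO+AAV replicate 2 (0.42, adjusted P = 0.101), KO+AAV replicate 4 (0.48, 0.0655), WT replicate 1 (0.51, 0.0584) or WT replicate 4 (0.53, 0.0505). At 10 weeks WT minus KO was -0.0048 ± 0.15 for *Lifr* (adjusted P = 0.992), and WT minus KO+AAV was 0.26 ± 0.14 (adjusted P = 0.326).

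*Stat3* was lower in WT than in KO+AAV muscle at both ages. At 10 weeks it ranged from 660 to 890 normalized counts in WT (median 793), from 792 to 1082 in KO (median 966) and from 945 to 1464 in KO+AAV (median 1090). The WT and KO+AAV ranges did not meet, and KO lay between and overlapped both. WT minus KO+AAV was -0.54 ± 0.14 (log2, adjusted P = 0.0166), with -0.60 within the ICBR libraries (adjusted P = 0.134) and -0.47 within the Novogene libraries (adjusted P = 0.176). WT minus KO was -0.27 ± 0.14 (adjusted P = 0.319) and KO+AAV minus KO was 0.27 ± 0.14 (adjusted P = 0.558), and these 2 contrasts share the KO libraries. At 40 weeks WT libraries had 679, 746, 703, 741 and 733 normalized counts, KO libraries 1296, 2043, 1706, 987 and 982, and KO+AAV libraries 893, 1164, 1185, 987 and 1159. Every WT library was under every KO and KO+AAV library, and KO replicates 2, 3 and 1 were the highest. WT minus KO+AAV was -0.57 ± 0.16 (adjusted P = 0.0136), a call kept when any 1 library of either group was left out (adjusted P 0.00955 to 0.0384). WT minus KO was -0.90, and -0.75 without KO replicate 2, still without overlap, and KO+AAV minus KO was -0.33 and -0.18. Markers of regenerating muscle moved in the same way at that age, their summed level being 446 to 724 normalized counts in WT, 1014 to 2072 in KO and 1110 to 2063 in KO+AAV, with 4 or 5 of the 6 markers above 0 in WT and 5 or 6 in KO and KO+AAV. Macrophage markers overlapped between all 3 groups (289 to 925, 254 to 564 and 174 to 610). T cell markers were few and separated WT from the rest, with sums of 28.1 to 35.1 in WT, 5.50 to 7.16 in KO and 0 to 19.8 in KO+AAV. The part of these marker lists in the *Stat3* difference was not tested.

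*Socs3*, the feedback inhibitor, was the member with the largest tested difference. At 10 weeks WT libraries ranged from 17.1 to 53.6 normalized counts (median 27.5), KO libraries from 27.0 to 87.9 (median 43.1) and KO+AAV libraries from 48.9 to 884 (median 141). KO+AAV replicate 1 was the library at 884, replicates 3, 5 and 6 were at 231, 197 and 141, and replicate 2, at 48.9, was inside the WT and KO ranges. WT minus KO+AAV was -2.35 ± 0.47 (log2, adjusted P = 0.00165), and -1.93 without KO+AAV replicate 1 (adjusted P = 0.00278). Within sites it was -2.67 at ICBR (adjusted P = 0.118) and -1.95 at Novogene (adjusted P = 0.0650). KO+AAV minus KO was 1.80 ± 0.47 and missed the threshold with limma (adjusted P = 0.122), with edgeR and DESeq2 giving 2.32 (0.0453) and 2.29 (0.00374). Over all alternatives the adjusted P ran from 0.00374 to 0.750. Fibroblast markers reached higher levels in KO+AAV at 10 weeks, with sums of 13338 to 83803 normalized counts against 6830 to 18704 in WT and 5576 to 18821 in KO, all 6 markers present throughout. The highest fibroblast library was KO+AAV replicate 4 and the highest macrophage library KO+AAV replicate 5 (2411). Without replicate 4 the *Socs3* difference between WT and KO+AAV was -2.44 (adjusted P = 0.00220), and without replicate 5 it was -2.29 (adjusted P = 0.00472).

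At 40 weeks *Socs3* did not pass between WT and KO+AAV. WT libraries had 37.1, 25.1, 42.5, 31.3 and 53.1 normalized counts, KO libraries 45.4, 127, 130, 33.9 and 40.0, and KO+AAV libraries 22.3, 128, 49.9, 51.9 and 28.8. All 3 groups overlapped, with KO replicates 2 and 3 and KO+AAV replicate 2 high together, and WT minus KO+AAV was -0.33 ± 0.54 (adjusted P = 0.745). Within KO+AAV, 40 minus 10 weeks was -1.76 ± 0.54 (adjusted P = 0.0385). That call was lost without 40-week KO+AAV replicate 1 (0.0970), 3 (0.0521) or 5 (0.0900), without 10-week KO+AAV replicate 5 (0.0798), with the 2 groups fitted alone (0.345) and with no filter on low counts (0.0718). The change of the WT to KO+AAV difference with age, 2.02 ± 0.71, did not pass over all genes (adjusted P = 0.221), so the ages are not shown to differ.

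*Arid5a* also had its highest 40-week value in KO replicate 2. WT libraries had 65.2, 118, 191, 109 and 123 normalized counts, KO libraries 106, 2113, 353, 187 and 185, and KO+AAV libraries 206, 479, 281, 224 and 292. Every KO+AAV library was above every WT library, while KO replicates 1, 4 and 5 lay inside the WT range and KO replicate 2 was far above the rest. WT minus KO+AAV was -1.29 ± 0.47 (adjusted P = 0.0640). KO replicate 2, which is in neither group but enters the shared estimate of the spread, moved this result: without it the adjusted P was 0.00415, with the same difference. The result also passed with both groups fitted alone (0.00719), with quality weights (0.00915) and without both replicate 2 libraries (0.0184), and over all alternatives the adjusted P ran from 0.00415 to 0.170. WT minus KO was -1.41 with all KO libraries and -0.72 without KO replicate 2, and KO+AAV minus KO turned from -0.12 to 0.57, or 0.39 without both replicate 2 libraries. *Arid5a* was also higher at 40 than at 10 weeks in KO without overlap, by 2.08, or 1.38 without KO replicate 2 (10-week KO range 50.7 to 95.9). In KO+AAV the difference with age was 1.44 ± 0.47 and did not pass (adjusted P = 0.0529, and 0.00301 without KO replicate 2), and the 40-week libraries lay above the 10-week range of 68.9 to 179.

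**Figure D3:**
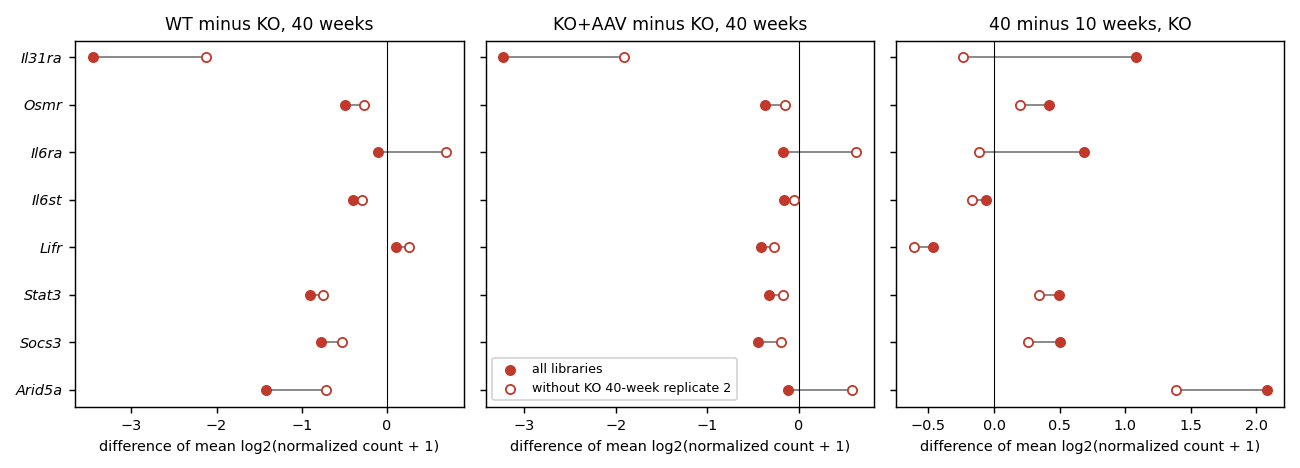
Differences of mean log2(normalized count + 1) (x axis) for the 3 contrasts that use the 40-week KO libraries, with filled points for all libraries and open points without KO replicate 2, by member (y axis). The sign turned for *Il6ra* in all 3 contrasts, for *Arid5a* in KO+AAV minus KO and for *Il31ra* with age; the *Il31ra* values rest on WT and KO+AAV libraries of at most 1 read at 40 weeks.

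In the contrasts that the members were chosen by, those without overlap were counted against all 16199 genes, as a description. WT and KO at 40 weeks did not overlap for 2 of 8 members (*Il6st* and *Stat3*), against 13.6% of all genes, or 17% without KO replicate 2. KO+AAV and KO at 40 weeks did not overlap for 0 of 8 (1.08% of all genes), and 40- and 10-week KO did not overlap for 1 of 8, *Arid5a* (4.94%).

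The members were chosen with KO replicate 2 in view, so their count in it is a description and not evidence of enrichment. KO replicate 2 was above the other 4 KO libraries for 7 of the 8 members, where 29.9% of all genes were. The exception was *Socs3*, which was at 130 in replicate 3 and 127 in replicate 2. Among 19 known STAT3 target genes, 14 were above the other 4 KO libraries in it and 1 was below, with a median log2 difference of 1.64. *Cebpd*, a transcription factor of the acute phase response, stood at 4685 normalized counts against 91.0 to 275 in the other KO libraries. *Gadd45g*, a stress sensor, was at 4126 against 318 to 631, *Serpina3n*, a secreted protease inhibitor, at 441 against 8.92 to 58.2, and *Lcn2*, which binds bacterial iron carriers, at 184 against 2.76 to 21.5. *Bcl6*, a transcriptional repressor, was the target below, at 224 against 667 to 1378. These 5 targets were named after their values were seen. KO+AAV replicate 2 was the next highest *Cebpd* library of that age, at 1420, with 73.2 to 308 in the other KO+AAV libraries. Immediate-early genes were above the other KO libraries in 4 of 15 cases, feedback inhibitors in 3 of 11 and the family's ligands in 0 of 5. Acute phase genes were above in 3 of 4 cases (below in 1) and clock genes in 7 of 15 (below in 5). RNA-binding regulators of cytokine mRNA were above in 3 of 8 cases, kinases, phosphatases and other STATs in 4 of 12 and other receptors in 1 of 6. Over all genes 29.9% were above, with a median log2 difference of -0.01. Acute phase and clock genes also had shares over this, so a higher share was not confined to the STAT3 targets. Kinases, phosphatases and other STATs (33.3%) and RNA-binding regulators (37.5%) were nearer to it. The ligands, other receptors, immediate-early genes and feedback inhibitors were under it. Neutrophil markers summed to 96.7 normalized counts in KO replicate 2 (others 30.7 to 49.6, 4 or 5 of 6 markers present), lung epithelial markers to 124 (others 2.76 to 111) and macrophage markers to 564 (others 254 to 547). Their part was not tested.

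**Figure D4:**
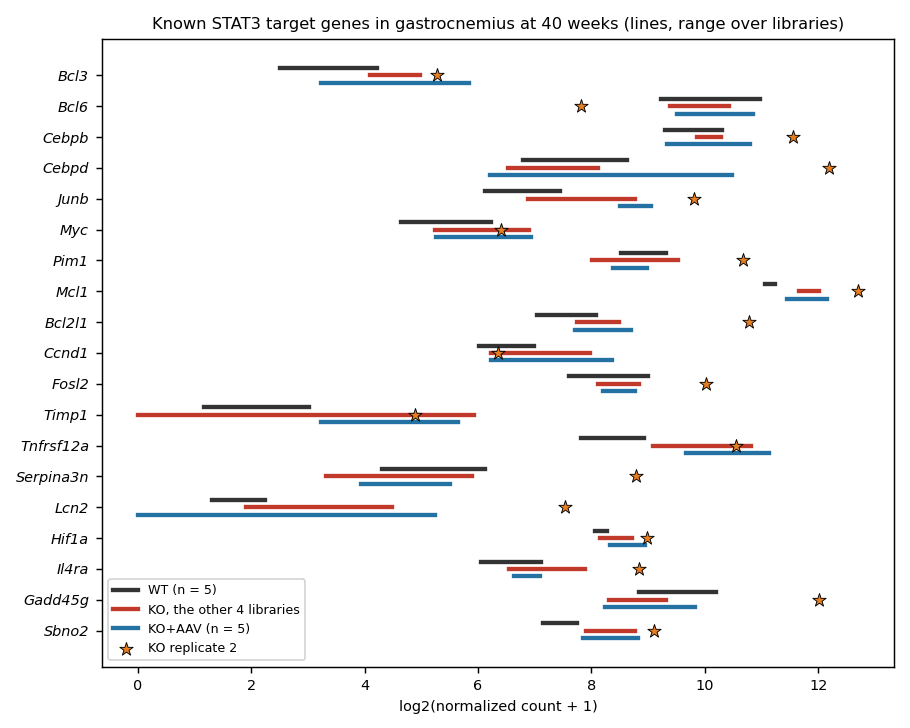
Known STAT3 target genes in 40-week gastrocnemius as log2(normalized count + 1) (x axis), with lines for the range over WT (n = 5), the other 4 KO libraries and KO+AAV (n = 5) and a star for KO replicate 2. The star lies to the right of the other KO libraries for 14 of 19 genes and to the left for *Bcl6* (224 against 667 to 1378 normalized counts).

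Over the tested comparisons few members passed, and *Il31ra* is left out of these gastrocnemius counts. All of the counts are a description, given how the members were chosen. At 10 weeks 0 of 7 members were called between WT and KO, where 8% of all genes were. Between WT and KO+AAV 2 of 7 were called (*Stat3* and *Socs3*, both lower in WT), where 5.15% were. Between KO+AAV and KO at 10 weeks 0 of 7 were called, against 0.204% of genes. At 40 weeks 2 of 7 were called between WT and KO+AAV (*Stat3* lower and *Lifr* higher in WT), against 12.5%. With age 0 of 7 passed in WT (0.148% of genes) and 1 of 7 in KO+AAV (*Socs3*, against 8.53%). In the change of the WT to KO+AAV difference with age 0 of 7 passed (0.642%). Leaving out *Il31ra*, which entered these fits only through the 40-week KO replicate 2, the median log2 difference of the other 7 members was -0.27 for WT minus KO and -0.32 for WT minus KO+AAV at 10 weeks, -0.23 for WT minus KO+AAV at 40 weeks, and 0.15 for age in WT. Over all genes these medians were -0.0074, -0.02, -0.00011 and 0.0048. At an unadjusted P under 0.05, leaving out *Il31ra*, there was 1 of 7 members between WT and KO (*Il6st*, against 19.6% of all genes), 1 between KO+AAV and KO (*Socs3*, 9.23%) and 2 between WT and KO+AAV at 10 weeks (18.1%). There were 3 between WT and KO+AAV at 40 weeks (25.8%), 0 with age in WT (7.46%) and 3 with age in KO+AAV (23.9%). The count of 0 with age in WT at the adjusted threshold was also 0 with edgeR and DESeq2.

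**Figure D5:**
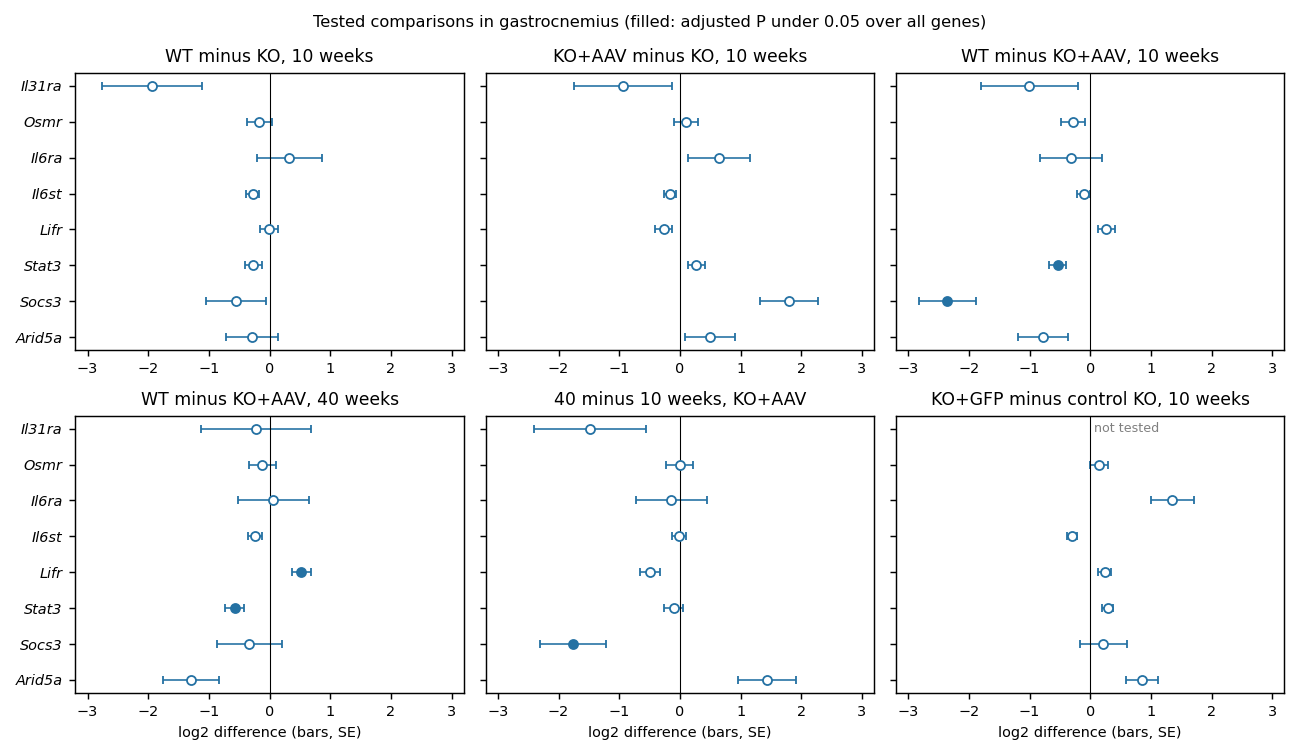
Log2 differences with SE (x axis) of the members (y axis) in 6 tested gastrocnemius comparisons, filled where the adjusted P over all genes was under 0.05. The *Il31ra* points are not read as tests, since this gene entered the fits only through the 40-week KO replicate 2. Filled points are *Stat3* and *Socs3* for WT minus KO+AAV at 10 weeks, *Stat3* and *Lifr* at 40 weeks, and *Socs3* for 40 minus 10 weeks in KO+AAV; no point is filled for WT minus KO at 10 weeks, KO+AAV minus KO or the GFP virus.

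The GFP virus experiment asked what a virus without *Bmal1* does in KO muscle. *Il6ra* was at 42.8, 36.3 and 30.8 normalized counts with the GFP virus and at 18.9, 18.2 and 7.25 in control KO muscle. The groups did not overlap, and the difference was 1.35 ± 0.35 (log2, adjusted P = 0.0636; range over alternatives 0.0366 to 0.174). *Il6st* went the other way, with 1647, 1473 and 1649 against 1948, 1855 and 2062, a difference of -0.30 ± 0.08 (adjusted P = 0.0764). *Stat3* had 494, 584 and 567 against 445, 425 and 477 (0.29 ± 0.10, adjusted P = 0.134), and *Arid5a* 32.6, 59.5 and 43.2 against 24.8, 20.5 and 26.9 (0.85 ± 0.26, adjusted P = 0.104). None of the 7 members tested was called, where 3.09% of 14477 genes were with limma, 0 members with edgeR and 1 (*Il6ra*) with DESeq2. There were 5 members with an unadjusted P under 0.05, these 4 and *Lifr*, where 18.7% of all genes were, and 4 did not overlap, where 23.5% of genes did not. *Socs3* had 16.9, 28.9 and 9.69 against 13.9, 14.8 and 14.5 (0.22 ± 0.38, adjusted P = 0.817), and *Il31ra* was under the filter. Macrophage markers were higher in the GFP libraries (summed 387 to 445 against 162 to 214 normalized counts), and fibroblast markers overlapped (5722 to 9995 against 2889 to 6942), while regenerating muscle markers were at 491 to 503 against 382 to 410 and Schwann cell markers at 423 to 531 against 1063 to 1265. The part of these lists in the member values was not tested.

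In lung, liver, heart and white fat KO+AAV was compared with KO. These tissues had no group given the GFP virus, so muscle *Bmal1* and the virus itself cannot be told apart in them. The paper reports more viral copies in liver and heart than in tibialis anterior, with no BMAL1-HA protein detected there. No member was called in lung (0 of 8; 0.0237% of genes), liver (0 of 7; 0%), heart (0 of 7; 0%) or white fat (0 of 8; 0%). The genes at an unadjusted P under 0.05 numbered 2517 in lung (11.9%), 553 in liver, 232 in heart and 220 in white fat; edgeR called 4 genes in lung and 0 in each of the others, and DESeq2 626, 12, 0 and 1, no member among them. At an unadjusted P under 0.05 there was 1 member each in lung (*Osmr*), liver (*Socs3*) and heart (*Arid5a*), and 0 in white fat. In lung *Stat3* was within 8192 to 9387 normalized counts in all 8 libraries and differed by -0.03 ± 0.06 (adjusted P = 0.880). *Osmr* in lung was at 3748, 2991, 3381 and 3064 in KO and 2652, 3361, 2593 and 2501 in KO+AAV, a difference of -0.25 ± 0.11 (adjusted P = 0.406). Cardiomyocyte markers in lung summed to 4311 to 41875.5 normalized counts in KO and 61244.5 to 214590 in KO+AAV, without overlap. Neutrophil markers (4395 to 8807 and 2810 to 5979) and skeletal muscle fiber markers (269 to 1469 and 1195 to 5462) overlapped. The part of these marker lists in the lung values was not tested.

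In liver *Socs3* was at 1453, 399, 217 and 352 normalized counts in KO and 119, 462, 155 and 116 in KO+AAV. KO replicate 1 and KO+AAV replicate 2 were high within their groups, which overlapped, and KO+AAV minus KO was -1.37 ± 0.60 (adjusted P = 0.997). *Stat3* in liver was high in the same pair of libraries, at 9944 and 7690 normalized counts, against 4036 to 5305 in the other 6. *Lifr*, the leading receptor there, had 7672, 6710, 11604 and 13620 in KO and 6572, 5122, 10413 and 11396 in KO+AAV (-0.26 ± 0.30, adjusted P = 0.997).

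In heart, KO replicate 2, the library with hepatocyte markers, was the highest for 2 receptors that are abundant in liver. *Lifr* was at 8679 normalized counts in it and at 1350 to 1559 in the other 7 libraries, and *Il6ra* at 1500 against 141 to 245. KO+AAV minus KO was -0.61 for *Lifr* and -0.59 for *Il6ra* with that library, and 0.04 and 0.16 without it. *Arid5a* in heart had 225, 109, 215 and 277 in KO and 310, 490, 327 and 250 in KO+AAV (0.77 ± 0.32, adjusted P = 0.862; 0.49 ± 0.22 without KO replicate 2). *Stat3* overlapped (5947 to 8573 in KO and 6103 to 7104 in KO+AAV).

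In white fat, *Il31ra* was detected in every library, at 33.6, 54.0, 89.8 and 19.4 normalized counts in KO and 36.7, 40.9, 66.1 and 21.8 in KO+AAV. The groups overlapped throughout (-0.14 ± 0.54, adjusted P = 0.949). KO+AAV replicate 2 was the highest white fat library for *Il6ra* (3067; others 645 to 2280), *Arid5a* (1487; others 384 to 643), *Socs3* (715; others 213 to 388) and *Stat3* (8772; others 5763 to 7322). Without both replicate 2 libraries KO+AAV minus KO went from 0.57 to 0.01 for *Il6ra* and from 0.17 to -0.35 for *Arid5a*. In lung *Il31ra* ranged from 1.15 to 29.5 normalized counts, in heart it reached 14.1 in KO replicate 4 and at most 2.63 elsewhere, and in liver it was at most 1.12.

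Several ligands of these receptors were scarce in muscle. *Il6* had a read in 13 of 34 gastrocnemius libraries, with at most 5 reads, *Osm*, which encodes oncostatin M, in 8 with at most 14 reads, and *Il31* in 0. *Ctf1*, which encodes cardiotrophin, had reads in all 34, at 71.6 to 179 normalized counts.

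Among the other receptors of the family 2 of 6 were called between WT and KO at 10 weeks, both higher in WT, where 8% of all genes were called. *Cntfr*, the receptor of ciliary neurotrophic factor, was at 204 to 311 normalized counts in WT and 50.5 to 140 in KO (1.51 ± 0.30, adjusted P = 0.00103). It was also higher in WT than in KO+AAV at 10 weeks (1.43 ± 0.29, adjusted P = 0.00207) and at 40 weeks (155 to 250.6 against 15.4 to 104, with a difference of 2.14 ± 0.33, adjusted P = 3.42e-05), and fell by 1.14 from 10 to 40 weeks in KO+AAV (adjusted P = 0.0305). *Il11ra1*, the IL-11 receptor, was at 481 to 626 in WT and 349 to 459 in KO (0.46 ± 0.12, adjusted P = 0.0114).

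Of 12 kinases, phosphatases and other STATs tested, 1 was higher and 1 lower in WT than in KO at 10 weeks, where 8% of all genes were called. *Jak2*, a kinase of these receptors, was at 1043 to 1623 normalized counts in WT and 527 to 920 in KO (0.82 ± 0.13, adjusted P = 6.41e-05), and was higher in WT than in KO+AAV at 40 weeks (825 to 1210 against 469 to 667; 0.88 ± 0.15, adjusted P = 7.52e-05). *Stat5a*, whose exons overlap those of *Stat3* on the other strand, was at 212 to 288 in WT and 298 to 406 in KO (-0.57 ± 0.16, adjusted P = 0.0229). *Jak1* was lower with the GFP virus (1108 to 1139 against 1415 to 1742; -0.51 ± 0.09, adjusted P = 0.0106). Of 11 other feedback inhibitors 0 were called between WT and KO at 10 weeks (8% of all genes). In each contrast of WT with KO+AAV 1 was called, against 5.15% of all genes at 10 weeks and 12.5% at 40 weeks. These were *Pias3*, an inhibitor of STAT3, lower in WT at 10 weeks (-0.41, adjusted P = 0.0426), and *Socs7*, a relative of *Socs3*, higher in WT at 40 weeks (0.27, adjusted P = 0.0422), both named after their values were seen. Of 8 RNA-binding regulators of cytokine mRNA 0 were called at 10 weeks. Between WT and KO+AAV at 40 weeks 1 of 8 was called, where 12.5% of all genes were. It was *Zc3h12a*, an RNase that degrades *Il6* mRNA, which like *Arid5a* was at a lower value in WT (-0.81, adjusted P = 0.0325). This gene was named after its value was seen.

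Of the known STAT3 targets, 0 of 19 were higher and 6 lower in WT than in KO+AAV at 40 weeks, where 12.5% of all genes were called, with a median log2 difference of -0.43 against -0.00011 over all genes. *Tnfrsf12a*, a receptor induced in injured muscle, was at 223 to 485 normalized counts in WT and 814 to 2240 in KO+AAV (-1.91 ± 0.34, adjusted P = 0.000201). *Junb*, an AP-1 factor, was at 68.8 to 174 against 360 to 528 (-1.81 ± 0.36, adjusted P = 0.000747), and *Mcl1*, which blocks apoptosis, at 2125 to 2405 against 2795 to 4529 (-0.62 ± 0.14, adjusted P = 0.00205). At 10 weeks 1 target was higher and 3 lower in WT than in KO+AAV, where 5.15% of all genes were called. *Myc*, a growth regulator, was at 16.2 to 48.4 in WT, 58.1 to 146 in KO (-1.51 ± 0.30, adjusted P = 0.000968) and 61.1 to 158 in KO+AAV (-1.70 ± 0.29, adjusted P = 0.000296), and *Hif1a*, the hypoxia factor, was at 198 to 348 in WT and 349 to 485 in KO+AAV (-0.41 ± 0.12, adjusted P = 0.0402). Between KO+AAV and KO at 10 weeks 0 of 19 were called, against 0.204% of all genes. With the GFP virus *Gadd45g* was lower (98.7 to 140 against 265 to 488; -1.57 ± 0.20, adjusted P = 0.00172) and *Bcl2l1*, an apoptosis inhibitor, higher (84.6 to 96.8 against 53.4 to 60.6; 0.65 ± 0.16, adjusted P = 0.0495).

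Of 4 acute phase genes tested in muscle 1 was called in each of 2 comparisons, in opposite directions. Over all genes 5.15% were called between WT and KO+AAV at 10 weeks and 12.5% at 40 weeks. *Orm1*, a plasma carrier protein, was lower in WT than in KO+AAV at 10 weeks (0 to 5.36 against 6.51 to 42.5 normalized counts; -2.45 ± 0.73, adjusted P = 0.0447). The WT values lay around the floor of 3 reads, 1.31 to 4.54 normalized counts in those libraries, so the size of this difference is uncertain. *Hp*, which encodes the hemoglobin-binding haptoglobin, was higher in WT than in KO+AAV at 40 weeks (1.93, adjusted P = 0.0371), and was named after its value was seen. Its ranges overlapped, at 61.0 to 896 normalized counts in WT and 25.3 to 94.7 in KO+AAV. Immediate-early genes, which mark recent stimulation, had 2 of 15 lower in WT than in KO+AAV at 40 weeks, where 12.5% of all genes were called. *Ccn1*, a matrix protein, was among them (269 to 420 against 977 and above, -2.07 ± 0.37, adjusted P = 0.000230). Between WT and KO at 10 weeks 1 of 15 was called, against 8% of all genes. It was *Nr4a1*, a nuclear receptor of exercised muscle, higher in WT (1.27 ± 0.25, adjusted P = 0.000959). Of the clock genes, between WT and KO at 10 weeks 8 of 15 were higher and 3 lower in WT and between KO+AAV and KO 5 were higher in KO+AAV. Over all genes 8% and 0.204% were called in these comparisons. *Nr1d2*, a repressor in the clock loop, was at 1421 to 1953 normalized counts in WT and 723 to 1308 in KO+AAV at 10 weeks, against a KO median of 249 (WT minus KO 2.78 ± 0.17, adjusted P = 7.16e-13; KO+AAV minus KO 1.96 ± 0.16, adjusted P = 3.88e-09).

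Across the 34 gastrocnemius libraries the members were related loosely, and these Spearman correlations are a description over libraries that share group, site and depth. *Stat3* went with *Osmr* (0.63), *Socs3* (0.59) and *Arid5a* (0.52), and these were 0.64, 0.50 and 0.66 once the mean of each group and site was removed. *Lifr* ran against *Arid5a* (-0.61), mostly between groups, since within group and site the value was -0.21. *Il6ra* and *Arid5a* were at 0.28 overall and 0.65 within group and site. Without the 40-week KO replicate 2 the overall values were 0.21 for this pair and -0.72 for *Lifr* with *Arid5a*. For *Stat3* they were then 0.59 with *Osmr*, 0.57 with *Socs3* and 0.48 with *Arid5a*. No value within group and site without that library is given. The genes whose log2 values followed each member most closely were *Ucp2* (0.88), *Eef1a1* (0.87) and *Rasa3* (0.87) for *Stat3*, *Otulin* (0.86), *Xirp1* (0.85) and *Trafd1* (0.84) for *Arid5a*, *Dnm3* (0.85), *Rab11b-ps2* (0.82) and *Isoc2a* (0.80) for *Il6st*, and *Capn15* (0.79), *Gngt2* (0.74) and *Mt1* (0.73) for *Osmr*. They were *Idh3a* (0.77), *Abhd13* (0.75) and *Abcd2* (0.75) for *Lifr*, *Sf3b3* (0.73), *Auts2* (0.71) and *Usp29* (0.70) for *Il31ra*, *Plcd1* (0.69), *Pck2* (0.68) and *Ahnak2* (0.67) for *Socs3*, and *Selenbp1* (0.65), *Prrc2c* (0.64) and *Syde2* (0.63) for *Il6ra*. The best match was thus closest for *Stat3* and loosest for *Il6ra*.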

How the data were processed

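Poly-A RNA-seq reads of the samples above were aligned with HISAT2 to GRCm38 (mm10) and counted with HTSeq, as the study's methods and the submitters' processing notes state; the annotation release and strand setting are not given in the sources used here. The deposited signal values are gene counts that the authors divided by DESeq2 size factors, here called normalized counts; whole reads were recovered (within 0.01) in all 72 libraries. The separately deposited GFP table and each tissue were scaled on their own and analysed apart.

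Members, gene lists and tests were chosen with earlier results of these data known. Genes with a mean normalized count above 5 entered limma 3.58.1 (R 4.3.3) with an intensity trend on log2(normalized count + 1); 1 model of 34 gastrocnemius libraries had sequencing site as a covariate. Calls are Benjamini-Hochberg adjusted P under 0.05 over all genes tested. edgeR 4.0.16 and DESeq2 1.42.0 on the recovered reads, other filters, pseudocounts, size factors, weights, the replicate number as a block, single sites and left-out libraries were alternatives. Leaving out single 10-week KO+AAV libraries (replicates 1, 4 and 5) and both 40-week replicate 2 libraries was chosen after seeing the data. The fit was tested on simulated data. RPKM was computed from recovered reads, exon length and reads on genes; 55141 genes had a symbol. Floors of 3 reads cover counting error only.

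Named genes were the members, *Arntl*, up to 3 called, non-overlapping genes per list, direction and comparison with the smallest P, and the 3 genes with the highest Spearman correlation with each member; others are marked as named after their values were seen. The test results of the ligand genes are not reported here.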

Additional observations from a re-analysis of the deposited data

Results flagged for a closer look

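Dixon's 95% limit was applied to 126 combinations of a member or *Arntl* with a group of 4 to 10 libraries. In 26 of them the lowest or highest library was separated from the others by more of the group's range than this limit allows. The nominal chance rate of about 1 in 20 holds for independent groups of normally distributed values, so this count is a description and is not weighed against it. The same libraries recur over the genes, and a flagged value can rest on 1 read. The count also includes the 40-week gastrocnemius KO replicate 2, which was in view when the members were chosen.

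In 40-week gastrocnemius the library labelled KO replicate 2 was separated for *Il31ra* (509 normalized counts), *Il6ra* (732), *Arid5a* (2113) and *Arntl* (1039), and KO+AAV replicate 2 for *Il6ra* (327), *Il6st* (4707) and *Socs3* (128). WT replicate 1 was separated for *Il31ra* (1.48, 1 read) and *Il6st* (3047), and WT replicate 5 for *Arntl* (480, low).

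In 10-week gastrocnemius the separated libraries were KO+AAV replicate 1 for *Socs3* (884), KO+AAV replicate 4 for *Osmr* (267), KO replicate 5 for *Socs3* (87.9) and WT replicate 5 for *Il31ra* (4.02).

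In heart they were KO replicate 2 for *Lifr* (8679) and *Il6ra* (1500), KO replicate 4 for *Il31ra* (14.1) and KO+AAV replicate 3 for *Il6ra* (141, low). In white fat they were KO+AAV replicate 2 for *Il6ra* (3067) and *Arid5a* (1487), KO replicate 2 for *Il6st* (6625, low) and KO replicate 3 for *Arid5a* (643). In liver they were KO replicate 1 for *Stat3* (9944) and *Socs3* (1453) and KO+AAV replicate 2 for *Socs3* (462), and in lung KO replicate 1 for *Stat3* (9387).

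Libraries with the number 2 account for the separations of *Il6ra* in 40-week gastrocnemius, heart KO and white fat KO+AAV. Whether they came from the same mice, and the part of other cell types in them, was not tested.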

How the results depend on the processing

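Over 93 tested member results and 1587 alternatives, 1543 stayed on their side of the threshold, 14 lost it, 30 gained it and none of these reversed while called. Of the alternatives, 80 changed sign with neither value called. These counts include the gastrocnemius fits of *Il31ra*, a gene admitted there only through the 40-week KO replicate 2. The number of members called between WT and KO at 10 weeks (0) became 1 with the groups fitted alone (*Il6st*), 2 with quality weights (with *Il31ra*, which entered the test only through the 40-week KO replicate 2) and 1 without both 40-week replicate 2 libraries. Between KO+AAV and KO at 10 weeks it became 1 with DESeq2, edgeR and quality weights (*Socs3*). Between WT and KO+AAV at 10 weeks 2 became 0 at ICBR alone and 0 at Novogene alone, where fewer libraries were fitted; at 40 weeks it ran from 1 to 3 when single libraries were left out. For age in KO+AAV 1 became 2 with DESeq2, 3 with quality weights, 2 with a mean above 50, 0 with no filter, 3 with no site term and 2 without both replicate 2 libraries, and ran from 0 to 3 when single libraries were left out. For the GFP virus 0 became 1 with DESeq2, quality weights and the replicate block (*Il6ra*), and ran from 0 to 1 with libraries left out. Members not overlapping between KO+AAV and KO at 40 weeks ran from 0 to 1 (*Il31ra*, without KO replicate 4). The cause was not tested except where stated.

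No comparison had same-numbered libraries whose deviations all correlated above 0.1, so the replicate numbers were not taken to pair the samples; the block also brought *Arid5a* between WT and KO+AAV at 40 weeks past the threshold (adjusted P = 0.0201) and could not be estimated for age. Low reads limit *Il31ra* in muscle, liver and heart, and *Socs3* and *Il6ra* in the GFP experiment.

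Counts of all genes called moved by more than 1.5 times under these settings. With DESeq2 they were 149 for KO+AAV against KO at 10 weeks (33 with limma), 1398 for WT against KO+AAV at 10 weeks (834), 63 for age in WT (24), 236 for the change of the WT to KO+AAV difference with age (104), 626 in lung (5), 12 in liver (0) and 1 in white fat (0). With quality weights they were 180, 1698, 171, 466 and 445 for the first 5 of these, and 3416 for WT against KO at 10 weeks (1296), 3165 for WT against KO+AAV at 40 weeks (2018) and 868 for the GFP virus (448). Within ICBR and Novogene they were 557 and 450 for WT against KO, 307 and 180 for WT against KO+AAV, and 3 and 15 for KO+AAV against KO. With groups fitted alone they were 2170 for WT against KO, 292 for age in KO+AAV (1382) and 209 for its difference from WT with age, where no site term gave 2088 and 58. The replicate block gave 167 for that difference and 0 in lung, where a mean above 50 gave 2 and no filter 13. Leaving out single libraries gave 108 (without GFP replicate 3) to 646 (without control replicate 1) for the GFP virus, 2 to 257 (without KO+AAV replicate 2) in lung and 27 to 69 (without 40-week KO replicate 2) for KO+AAV against KO at 10 weeks.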
